A study of Mus musculus with 2 samples.

Results

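The stress programme set by the transcription factor ATF4 was followed through 10 genes in MIN6 cells. MIN6 is an insulin-secreting line grown from a mouse beta-cell tumour. The genes are Atf4, Ddit3, Cebpb, Trib3, Ppp1r15a, Chac1, Sesn2, Vldlr, Stc2 and Gdf15, taken by symbol as 10 of the 27179 gene rows of the deposited count table. They had been chosen because earlier results of these data showed them higher in cells given C2cd4a, so their counts, ratios and deposited p-values are given as a description of that contrast and support nothing beyond it. The library labelled C2cd4a-GFP came from cells that carried C2cd4a fused to green fluorescent protein. Its counterpart, labelled control-GFP, had a control GFP construct instead. Adenovirus infection at a multiplicity of 100 with polybrene, and RNA extraction 72 to 96 h later, were common to both, so neither library represents uninfected cells. Both labels give C2cd4a-GFP as the construct in their treatment text, and the groups therefore rest on the titles and characteristics.

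ATF4 is the main effector of the integrated stress response. Kinases that sense amino-acid shortage, unfolded protein in the endoplasmic reticulum, viral RNA or haem shortage phosphorylate the initiation factor eIF2, which slows most translation while the ATF4 messenger RNA is translated more. ATF4 then binds composite C/EBP-ATF elements in genes of amino-acid supply, glutathione turnover and feedback control, and CHOP, the product of Ddit3, joins it when stress persists. Beta cells make very large amounts of proinsulin and are known to depend on this control.

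Each condition had 1 column of raw counts, taken as 1 library, of 30164106 counts (C2cd4a-GFP) and 31039999 counts (control-GFP), so no replicate test could be made and every ratio compares libraries and not conditions. Levels are CPM (counts scaled to the library total, with TMM factors), ratios are C2cd4a-GFP over control-GFP, and each carries a 95% counting interval that covers counting error only. The size rule calls a gene higher or lower if the libraries differ by at least 1.5 times, the interval leaves out equality and the mean level reaches 1 CPM. "Rose" and "fell" are kept for genes whose DESeq2 adjusted p is under 0.05 in the authors' deposited table, and how many libraries it rests on is not stated in any source used here. Its p-values and its normalized values, which are not the raw counts times 1 factor per library, may rest on more libraries than the 1 column of raw counts per condition. C2cd4a itself was at 1608 CPM with C2cd4a-GFP and 4.35 CPM with control-GFP. The beta-cell markers Ins1, Ins2, Iapp, Pdx1, Mafa, Nkx6-1, Slc2a2 and G6pc2 were all detected, with summed levels of 77212 CPM with C2cd4a-GFP and 88330 CPM with control-GFP. In bulk RNA of this kind, fewer cells of a type and less RNA per cell cannot be told apart.

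The 3 transcription factor genes were higher in the C2cd4a-GFP library by 1.15 to 1.39 times. Atf4 itself (gene ID 11911, mm10 chromosome 15, 80255184 to 80257541) had 27729 counts with C2cd4a-GFP against 24037 with control-GFP, or 906 CPM against 786 CPM. That is a ratio of 1.15 (1.13 to 1.17), below the 1.5-fold size rule. In the authors' deposited table its log2 fold change was 0.21 and did not pass (DESeq2 adjusted p = 0.097). Ddit3 (gene ID 13198, chromosome 10, 127290793 to 127296288), which encodes CHOP, had 4935 counts with C2cd4a-GFP against 3903 with control-GFP, a ratio of 1.26 (1.21 to 1.32). It rose in the authors' deposited table (log2 fold change 0.34, adjusted p = 0.00176). Cebpb (gene ID 12608, chromosome 2, 167688915 to 167690418), a bZIP factor that pairs with ATF4 and CHOP, had 1831 counts with C2cd4a-GFP against 1315 with control-GFP. Its ratio was 1.39 (1.29 to 1.49), and it rose in the authors' deposited table (log2 fold change 0.78, adjusted p = 0.00272), a larger change than the deposited counts give. Exons of Ddit3 overlap those of Mars on the other strand (9931 counts with C2cd4a-GFP, 10217 with control-GFP). Those of Atf4 overlap an unnamed gene with 4 counts with C2cd4a-GFP and 5 with control-GFP. No source used here says if reads were assigned by strand.

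Of the feedback regulators, Trib3 differed more than Ppp1r15a. Trib3 (gene ID 228775, chromosome 2, 152337425 to 152344060), a pseudokinase that binds ATF4 and CHOP and damps their activity, had 13704 counts with C2cd4a-GFP against 10204 with control-GFP, or 448 CPM against 334 CPM. Its ratio of 1.34 (1.31 to 1.38) lay above those of Atf4 and Ddit3, and it rose in the authors' deposited table (log2 fold change 0.62, adjusted p = 0.00102). Ppp1r15a (gene ID 17872, chromosome 7, 45522917 to 45526268) encodes GADD34, which brings protein phosphatase 1 to phosphorylated eIF2 and so restores translation. It had 3740 counts with C2cd4a-GFP against 3130 with control-GFP, a log2 ratio of 0.26 (0.19 to 0.32). Its log2 fold change of 0.18 in the authors' deposited table missed the threshold (adjusted p = 0.255).

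The effector genes of this group were higher by 1.13 to 1.35 times. Chac1 (gene ID 69065, chromosome 2, 119351242 to 119354326), which encodes an enzyme that breaks down glutathione, had 6677 counts with C2cd4a-GFP against 5817 with control-GFP, a ratio of 1.15 (1.11 to 1.19). Its log2 fold change in the authors' deposited table was 0.41 and did not pass (adjusted p = 0.0789). Sesn2 (gene ID 230784, chromosome 4, 132492804 to 132510456) encodes a leucine-binding protein that restrains the growth kinase mTORC1 through the GATOR complexes. It had 13735 counts with C2cd4a-GFP against 12143 with control-GFP, a ratio of 1.13 (1.1 to 1.16) that was the smallest of the 10, and its log2 fold change of 0.29 in the authors' deposited table missed the threshold (adjusted p = 0.0887). Vldlr (gene ID 22359, chromosome 19, 27217020 to 27254231), a receptor for triglyceride-rich lipoproteins and for reelin, had 5864 counts with C2cd4a-GFP against 4349 with control-GFP. Its ratio was 1.35 (1.29 to 1.4), and it rose in the authors' deposited table (log2 fold change 0.40, adjusted p = 0.00241). With trends in exon length and GC content removed, its log2 ratio was 0.08 in place of 0.43.

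The genes of the secreted proteins Stc2 and Gdf15 stood well above the other 8. Stc2 (gene ID 20856, chromosome 11, 31359441 to 31370061) encodes stanniocalcin-2, a stress-induced glycoprotein that inhibits the proteases PAPP-A and PAPP-A2. It had 1473 counts with C2cd4a-GFP against 456 with control-GFP, or 48.1 CPM against 14.9 CPM, a ratio of 3.23 (2.9 to 3.59). Gdf15 (gene ID 23886, chromosome 8, 70629394 to 70631635) encodes a cytokine of the TGF-beta family that acts on feeding through the receptor GFRAL. It had 147 counts with C2cd4a-GFP against 39 with control-GFP, or 4.8 CPM against 1.28 CPM, a ratio of 3.76 (2.63 to 5.51). The Gdf15 interval is wide because the control-GFP value rests on 39 counts, and it contains the ratio of Stc2. By ratio, Gdf15 ranked 12 and Stc2 24 among the 12759 genes whose mean reached 1 CPM, whereas the other 8 ranked between 928 and 3571. Stc2 (log2 fold change 1.63, adjusted p = 8.27e-42) and Gdf15 (1.68, adjusted p = 7.93e-12) both rose in the authors' deposited table.

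**Figure D1:**
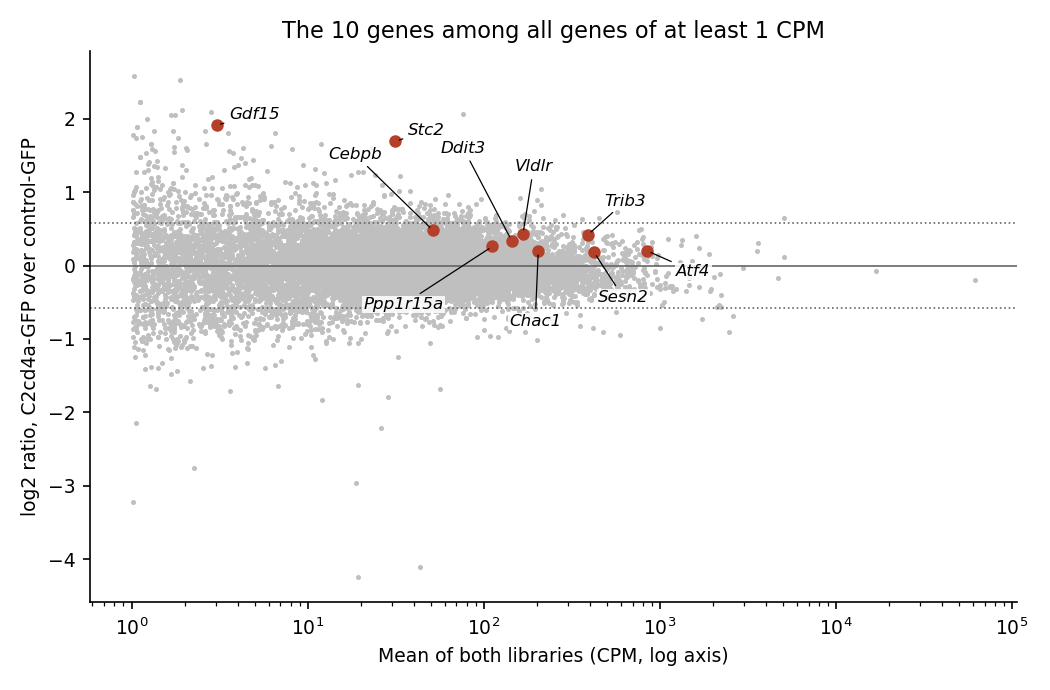
Each grey point is 1 of the genes whose mean reached 1 CPM (C2cd4a is off the scale and left out), with its mean level on a log axis and its log2 ratio of C2cd4a-GFP over control-GFP, and dotted lines mark 1.5-fold. Stc2 and Gdf15, at log2 ratios of 1.69 and 1.91, lie outside the lines, and the other 8 lie between 0 and the upper line.

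All 10 genes had a ratio above 1, against 49.2% of the 12759 genes. By the size rule 2 of the 10 (Stc2 and Gdf15) were higher and 0 lower, and the same rule called 4.23% of all genes higher and 4.23% lower (5.34% and 3.55% with total-count scaling). At 1.2-fold 6 of the 10 were higher, where 17.7% of all genes were higher and 17.9% lower. By adjusted p in the authors' deposited table, 6 of the 10 rose (Ddit3, Cebpb, Trib3, Vldlr, Stc2 and Gdf15), 0 fell and 4 did not pass, where 7.0% of 14619 genes rose and 6.58% fell. Since the genes were selected on this contrast, these shares are not read against the background. Their median log2 ratio was 0.38, and that of all genes was -0.01. For genes close to Stc2 and Gdf15 in both level (within 2-fold) and ratio over these 2 libraries, the nearest to Stc2 were Etv5 (log2 ratio 1.60), Pde10a (1.27) and Ntn1 (1.27). Those nearest to Gdf15 were Plekhg1 (1.83), Soat2 (1.83) and Acox2 (1.81).

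Setting each gene against Atf4 inside the same library needs no scaling between libraries. For every 100 Atf4 counts there were 5.31 Stc2 counts with C2cd4a-GFP and 1.9 with control-GFP, and 0.53 Gdf15 counts with C2cd4a-GFP and 0.162 with control-GFP. On this scale, with C2cd4a-GFP given against control-GFP, Trib3 stood at 49.4 against 42.5, Vldlr at 21.1 against 18.1, Ddit3 at 17.8 against 16.2, and Cebpb at 6.6 against 5.47. With the libraries taken likewise, Chac1 (24.1 and 24.2), Sesn2 (49.5 and 50.5) and Ppp1r15a (13.5 and 13.0) kept nearly the same proportion to Atf4 in both libraries. The secreted factors thus differed from Atf4 far more between libraries than the regulators and effectors did.

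Per kilobase of exon, the regulators were abundant in both libraries and the secreted factors were not. Atf4 was at 525 RPKM in the C2cd4a-GFP library and 456 RPKM in the control-GFP library, followed by Trib3 (218 against 163), Ddit3 (185 against 147), Sesn2 (169 against 149) and Chac1 (139 against 121). With C2cd4a-GFP against control-GFP, Ppp1r15a (52.4 against 43.9 RPKM), Cebpb (39.8 against 28.6) and Vldlr (23.1 against 17.1) were lower in level. Stc2 was at 26.8 RPKM with C2cd4a-GFP and 8.32 with control-GFP, so its level per length lay above that of Vldlr with C2cd4a-GFP and below it with control-GFP. Gdf15 was the least abundant of the 10, at 4.43 (3.74 to 5.21) RPKM in the C2cd4a-GFP library and 1.18 (0.837 to 1.61) in the control-GFP library. Neighbours in these orders had separate counting intervals, except Sesn2 (147 to 152) and Ddit3 (142 to 151) with control-GFP.

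**Figure D2:**
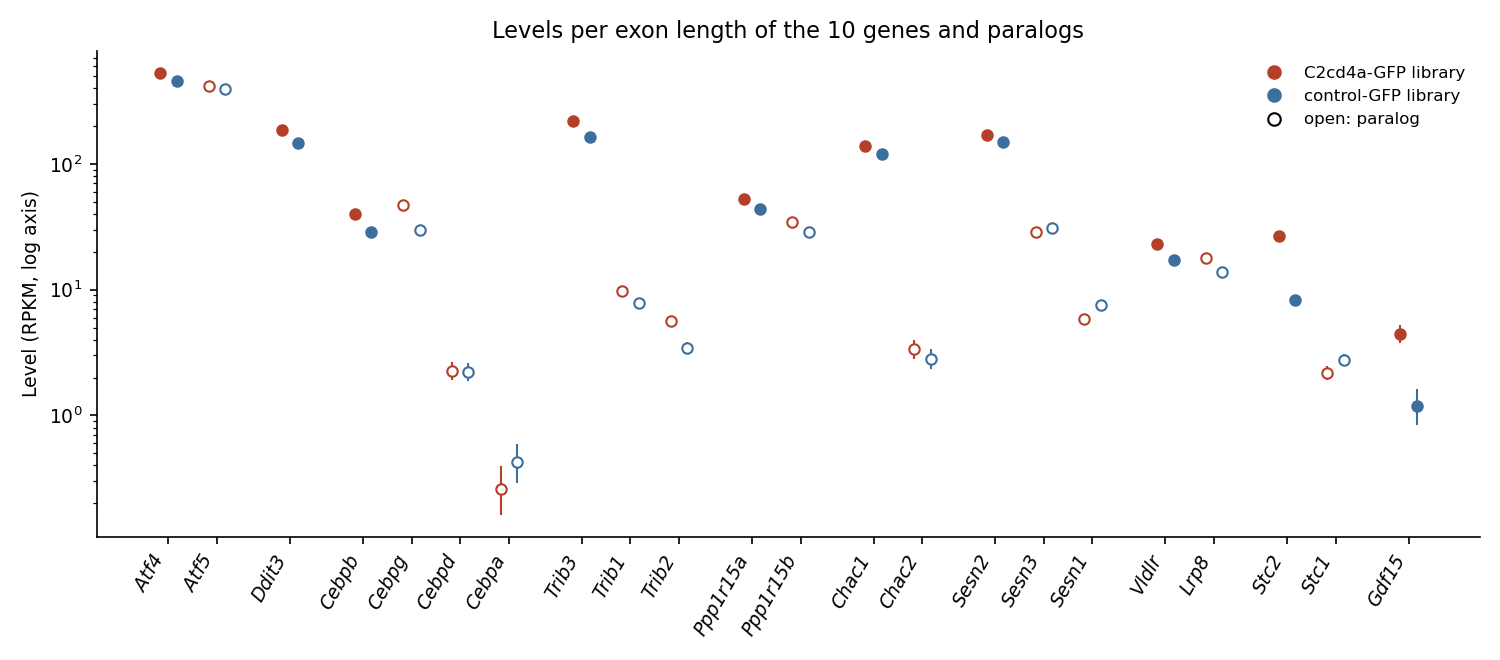
Levels per exon length (RPKM, log axis) of the 10 genes (filled) and the paralogs described (open) in the C2cd4a-GFP library (left point of each pair) and the control-GFP library (right point), with 95% Poisson intervals that cover counting error only. Atf4 is the most abundant at 525 and 456 RPKM and Gdf15 the least abundant of the 10 at 4.43 and 1.18 RPKM.

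Paralogs did not share the ratios of Stc2 or Sesn2. Stc1, the other stanniocalcin gene, had 249 counts with C2cd4a-GFP against 316 with control-GFP, a log2 ratio of -0.35 (-0.59 to -0.1), and missed the threshold in the authors' deposited table (adjusted p = 0.0808). Stc2 therefore made up 85.5% (exact binomial 95% interval 83.8 to 87.2) of the stanniocalcin counts in the C2cd4a-GFP library and 59.1% (55.5 to 62.6) in the control-GFP library. Among the sestrins, Sesn1 fell in the authors' deposited table (log2 fold change -0.41, adjusted p = 0.00191; 599 counts with C2cd4a-GFP, 769 with control-GFP) and Sesn3 did not pass (1890 counts with C2cd4a-GFP, 2055 with control-GFP). The share of Sesn2 was 84.7% (84.1 to 85.2) in the C2cd4a-GFP library and 81.1% (80.5 to 81.8) in the control-GFP library.

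In the other families the share of the gene differed by at most a few percentage points. Trib3 held 87.7% of the tribbles counts with C2cd4a-GFP and 87.8% with control-GFP. Trib2 (726 counts with C2cd4a-GFP, 444 with control-GFP), another pseudokinase gene, was also higher by size and rose in the authors' deposited table (log2 fold change 0.76, adjusted p = 1.05e-09), while Trib1 did not pass (1196 counts with C2cd4a-GFP, 973 with control-GFP). Ppp1r15b, the constitutive paralog of Ppp1r15a, rose in the authors' deposited table (log2 fold change 0.27, adjusted p = 0.0195), and the share of Ppp1r15a was 38.6% with C2cd4a-GFP and 39.0% with control-GFP. Chac1 made up 98.0% of the counts of its pair with C2cd4a-GFP and 98.1% with control-GFP, where Chac2 had 137 counts and 115 counts. Cebpg, a C/EBP factor that dimerises with ATF4, had 6798 counts with C2cd4a-GFP against 4263 with control-GFP, a log2 ratio of 0.67 (0.62 to 0.73). It rose in the authors' deposited table (log2 fold change 0.64, adjusted p = 1.84e-08). By raw counts its log2 ratio lay above that of Cebpb (0.67 against 0.48), whereas it lay below in the authors' deposited table (0.64 against 0.78) and with the trends in exon length and GC content removed (0.44 against 0.78). In raw counts the share of Cebpb was 20.8% (19.9 to 21.7) in the C2cd4a-GFP library and 22.8% (21.7 to 23.9) in the control-GFP library. Cebpa (21 counts with C2cd4a-GFP, 34 with control-GFP) and Cebpd (156 with C2cd4a-GFP, 154 with control-GFP) were rare. Beside Vldlr, the reelin receptor gene Lrp8 had a log2 ratio of 0.37, and Atf5 had 0.09, with neither passing in the authors' deposited table. Of the 13 paralogs 3 rose and 1 fell there, and 2 of the 12 with at least 1 CPM (Trib2 and Cebpg) were higher by size, or 1 with both trends removed. Over all genes 7.0% rose and 6.58% fell there, and 4.23% were higher by size, or 3.25% with both trends removed.

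**Figure D3:**
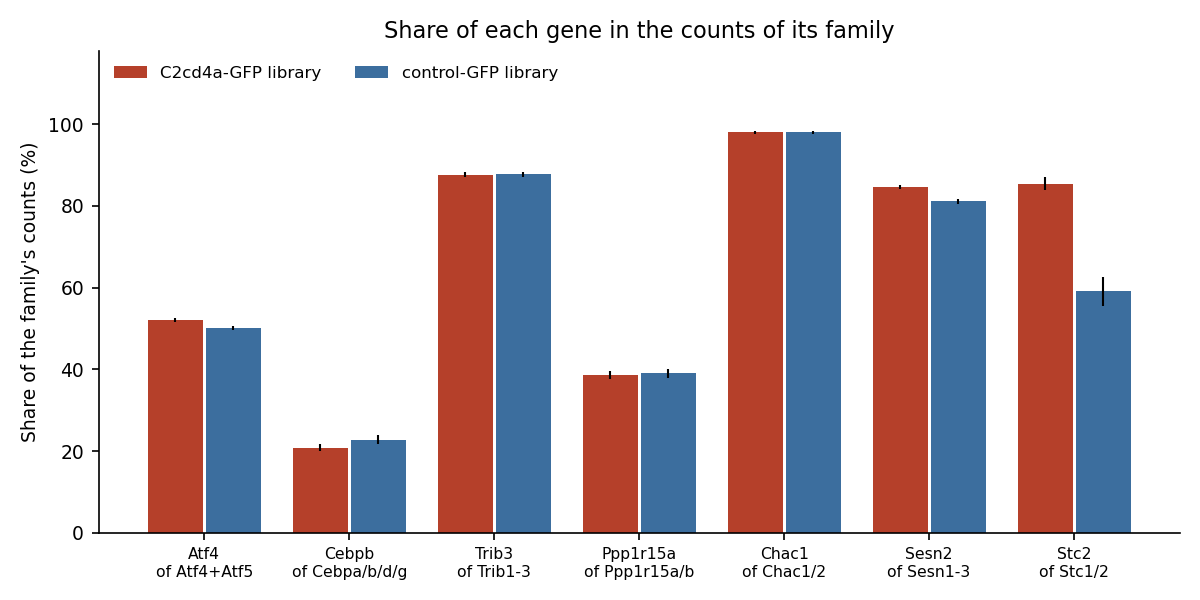
Share of each gene shown in the summed counts of its family in the C2cd4a-GFP library (left bar) and the control-GFP library (right bar), with exact 95% binomial intervals. The widest gap is that of Stc2, at 85.5% and 59.1%, whereas the shares of Trib3, Ppp1r15a and Chac1 are nearly equal in both libraries.

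Promoter windows were searched for the ATF4 composite element because the 10 genes have in common that they are known or proposed ATF4-linked genes. Each RefSeq window (GRCm38.p6) covers 250 bases before to 50 after a start site, and motifs were matched exactly on both strands. All 10 genes had a window, at the counted gene start for all but Gdf15. The element TGATGNAAN was found in Chac1, Vldlr and Trib3 (3 of 10), in 0 of 8 paralogs and in 11 of 27 other ATF4 targets that had a window, against 3.95% of 32851 windows. In Chac1 it starts 194 and in Vldlr 201 bases before the start site, in the same letters and both on the strand opposite to the gene. In Trib3 it starts at base 14 after the RefSeq start, which is the counted gene start, also on the opposite strand. The bases after that start were not found near the 5′ end of a GENCODE transcript of Trib3, as they were for the other genes. The full cyclic AMP element TGACGTCA was found in Ppp1r15a alone of the 10, 12 bases before the start (1.79% of windows). The stretches are given on the gene's strand (plus for Chac1 and Vldlr, minus for Trib3, Asns and Ppp1r15a; GRCm38.p6 has the coordinates of mm10) with the match in capitals, together with Asns, the asparagine synthetase gene, as an ATF4 target outside the 10:
Chac1, chr2:119351018-119351086: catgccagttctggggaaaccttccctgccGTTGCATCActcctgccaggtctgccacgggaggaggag
Vldlr, chr19:27216789-27216857: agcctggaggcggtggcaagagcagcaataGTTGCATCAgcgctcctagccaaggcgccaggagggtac
Trib3, chr2:152344029-152344057: ttagctcaggTTTACATCAgccgggcggg
Asns, chr6:7693210-7693262: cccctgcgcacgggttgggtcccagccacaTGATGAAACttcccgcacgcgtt
Ppp1r15a, chr7:45526269-45526320: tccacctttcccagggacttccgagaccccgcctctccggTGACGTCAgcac

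Neither element was in the windows of Stc2, Gdf15, Atf4, Ddit3, Sesn2 or Cebpb, which says only that these letters are absent there. The ER stress element (0.119% of windows) and the C/EBP site TTGCGCAA (0.183%) were in none of the 10. The AP-1 site TGANTCA was in Ddit3 (7.81% of windows). The core ACGTG, which the E-box CACGTG contains, was in Ddit3, Ppp1r15a and an upstream window of Gdf15 (19.6%), with the whole E-box in that Gdf15 window only (7.15%). The GC box GGGCGG was in 5 of the 10 (35.7%). The genes with the composite element had log2 ratios of 0.20 (Chac1), 0.43 (Vldlr) and 0.42 (Trib3), and those without it ranged from 0.18 (Sesn2) to 1.91 (Gdf15), with 5 of these 7 at or below 0.48.

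The raw ratio and the authors' deposited log2 fold change both varied with base composition across genes, and most of the 10 genes are GC-rich. Over 12359 genes the log2 ratio had a Spearman's rho of -0.478 with transcript GC content, and of 0.332 with exon length over 12759 genes, as a description of genes that share these 2 libraries. Over the same 12359 genes the authors' deposited log2 fold change had a Spearman's rho of -0.368 with GC content. Median GC content of the tested genes was 50.3%, and 9 of the 10 lay above it, from 51.5% for Stc2 to 67.2% for Cebpb, with Vldlr at 43.8%. When both trends were removed, an alternative chosen after seeing the data, the log2 ratio was 0.78 for Cebpb, 0.67 for Trib3, 0.62 for Ddit3, 0.47 for Chac1, 0.44 for Ppp1r15a, 0.40 for Sesn2 and 0.39 for Atf4. Stc2 was then at 1.82 and Gdf15 at 2.25, while Vldlr was at 0.08. Under the size rule this gives 5 of the 10 higher (Ddit3, Trib3 and Cebpb besides Stc2 and Gdf15), where 3.25% of all genes were higher and 2.68% lower.

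The authors' normalized values differed from the raw counts by a factor that was unequal between genes and, for 8 of them, between the libraries. In the authors' deposited table Cebpb has 2376 for C2cd4a-GFP and 1388 for control-GFP, which is 1.3 and 1.06 times its raw counts. The same quotients for C2cd4a-GFP and control-GFP were 1.21 and 1.04 for Chac1, 1.19 and 1.03 for Trib3, and 1.11 and 1.03 for Sesn2. For Atf4 they were 1.04 and 1.04, for Ddit3 1.03 and 1.03, and for Vldlr 0.933 and 0.956. Besides Vldlr, the quotient was the smaller one with C2cd4a-GFP for Gdf15 (1.02 and 1.18), which is GC-rich at 61.3%. The same held for Ppp1r15a (1.03 and 1.09) and Stc2 (1.03 and 1.07). The log2 fold change in the authors' deposited table exceeded the raw log2 ratio most for Cebpb (0.78 against 0.48), Chac1 (0.41 against 0.20), Trib3 (0.62 against 0.42) and Sesn2 (0.29 against 0.18). It lay farthest below for Gdf15 (1.68 against 1.91). What makes these values differ from the counts was not tested.

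**Figure D4:**
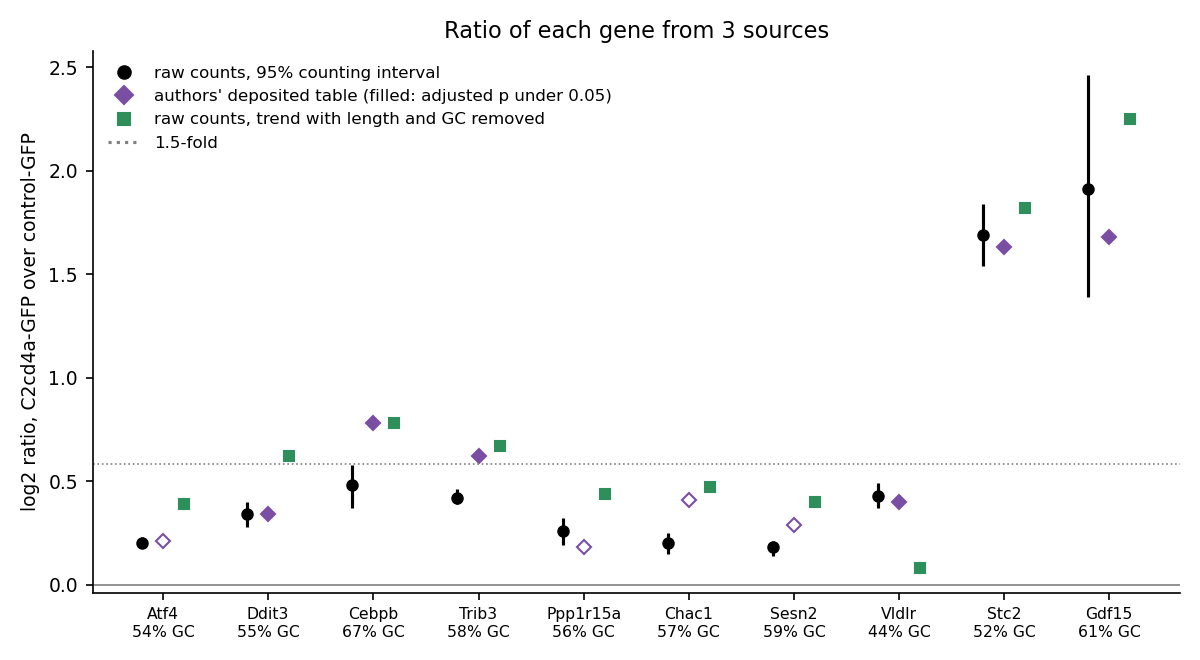
log2 ratio of C2cd4a-GFP over control-GFP for each gene from raw counts with its 95% counting interval (circles), from the authors' deposited table (diamonds, filled where the adjusted p was under 0.05) and from raw counts after the trends with exon length and GC content were removed (squares), with GC content under each name. All values lie above 0, and Vldlr is the only gene of the 10 whose ratio is smaller without the trends (0.08 against 0.43).

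Most other known ATF4 targets also had ratios above 1, with Slc7a11 and Fam129a in front. Of 38 listed genes, 37 had at least 1 CPM, of which 35 had a ratio above 1, 6 were higher by size and 0 lower, and the median log2 ratio was 0.31. Over all 12759 genes of at least 1 CPM, 49.2% had a ratio above 1, 4.23% were higher by size and 4.23% lower. Adjusted p in the authors' deposited table has 21 of the 38 that rose and 0 that fell, where 7.0% of 14619 genes rose and 6.58% fell. This list too was written with results of these data known, so its shares are not read against the background. It holds the paralogs Cebpg and Atf5. Slc7a11, the cystine importer that feeds glutathione synthesis, had 1034 counts with C2cd4a-GFP against 438 with control-GFP (log2 ratio 1.24, 1.07 to 1.4). Fam129a, a stress-induced regulator of translation, had 1442 with C2cd4a-GFP and 616 with control-GFP (1.23, 1.09 to 1.36). The neutral amino-acid transporter gene Slc38a2 had 8307 counts with C2cd4a-GFP and 4673 with control-GFP (0.83) and the tRNA exporter gene Xpot 6215 against 3888 (0.68). All 4 rose in the authors' deposited table, with adjusted p from 4.36e-14 to 3.18e-10. Fgf21, another secreted factor under ATF4, was near the limit of detection with 21 counts with C2cd4a-GFP and 22 with control-GFP. Ddit4 and Pck2, at -0.03 and -0.01, were the 2 of the 37 without a ratio above 1.

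The genes upstream of ATF4 showed no size call. The list of 20 genes covers eIF2, its kinases, its exchange factor eIF2B and its phosphatase, together with Gcn1l1, Impact, Eif2a and Eif2d. Of the 20, 0 were higher and 0 lower by size, and the median log2 ratio was 0.10. The size rule called 4.23% of all genes higher and 4.23% lower. The authors' deposited table has 1 rising (Ppp1r15b) and 0 falling, where 7.0% of 14619 genes rose and 6.58% fell. The most abundant were the phosphatase subunits Ppp1ca (14629 counts with C2cd4a-GFP, 16811 with control-GFP, log2 ratio -0.20) and Ppp1cb (6001 against 4877, 0.30). The 4 kinase genes, named after their values were seen, were at 0.41 for Eif2ak2 (PKR), 0.08 for Eif2ak1 (HRI), 0.02 for Eif2ak4 (GCN2) and -0.21 for Eif2ak3 (PERK), and none passed in the authors' deposited table. These are transcript levels and do not measure phosphorylation.

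Genes of the IRE1 and ATF6 branches of the unfolded protein response lay around a ratio of 1. Of 20 such genes 9 had a ratio above 1, 0 met the size rule and the median log2 ratio was -0.02. Over all genes 49.2% had a ratio above 1, 4.23% were higher by size and 4.23% lower. Calr, Hsp90b1 and Pdia4 fell and Dnajb9 rose in the authors' deposited table, where 7.0% of 14619 genes rose and 6.58% fell. The abundant chaperone genes Calr (31954 counts with C2cd4a-GFP, 40678 with control-GFP, log2 ratio -0.35) and Hsp90b1 (30968 against 37853, -0.29) were lower in the C2cd4a-GFP library. A difference between this list and the 10 was not tested.

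Gdf15 and Sesn2 are also known p53 targets, and the p53 list was mixed. Of 17 listed genes with at least 1 CPM, 3 were higher by size and 0 lower, and the median log2 ratio was 0.04. Over all genes 4.23% were higher by size and 4.23% lower. Mdm2, the ubiquitin ligase that restrains p53, had 8757 counts with C2cd4a-GFP against 4252 with control-GFP (1.04, 0.99 to 1.09), Ccng1 7382 against 4396 (0.75) and Plk2 526 against 292 (0.85). These 3 and Trp53inp1 rose in the authors' deposited table, while Sesn1 and Btg2 fell, where 7.0% of 14619 genes rose and 6.58% fell. Cdkn1a, the cell-cycle inhibitor gene most used as a p53 readout, was at 0.08 (19478 counts with C2cd4a-GFP, 18362 with control-GFP) and missed the threshold in the authors' deposited table (adjusted p = 0.442).

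Several genes that act together with the secreted factors and the receptor were higher in the C2cd4a-GFP library. Pappa2, a protease gene whose product stanniocalcin-2 inhibits, had 7991 counts with C2cd4a-GFP against 4319 with control-GFP, or 261 CPM against 141 CPM, a log2 ratio of 0.89 (0.83 to 0.94). It rose in the authors' deposited table (log2 fold change 0.74, adjusted p = 0.00243). Its paralog Pappa had 0 counts in both, which allows up to 0.098 CPM. The lipase gene Lpl, whose product acts with the VLDL receptor, had 1458 counts with C2cd4a-GFP and 886 with control-GFP (0.72, 0.6 to 0.84). Apoe (181 counts with C2cd4a-GFP, 120 with control-GFP), a ligand of that receptor, was also higher by size, and with Reln and Lpl rose in the authors' deposited table. Gfral, the receptor gene for Gdf15, had 0 counts in both libraries, with the same limit. Of the 9 partners with at least 1 CPM, 3 were higher by size and 0 lower, and the median log2 ratio was 0.39. The same rule called 4.23% of all genes higher and 4.23% lower. By the authors' adjusted p 4 partners rose and 0 fell, where 7.0% of 14619 genes rose and 6.58% fell.

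**Figure D5:**
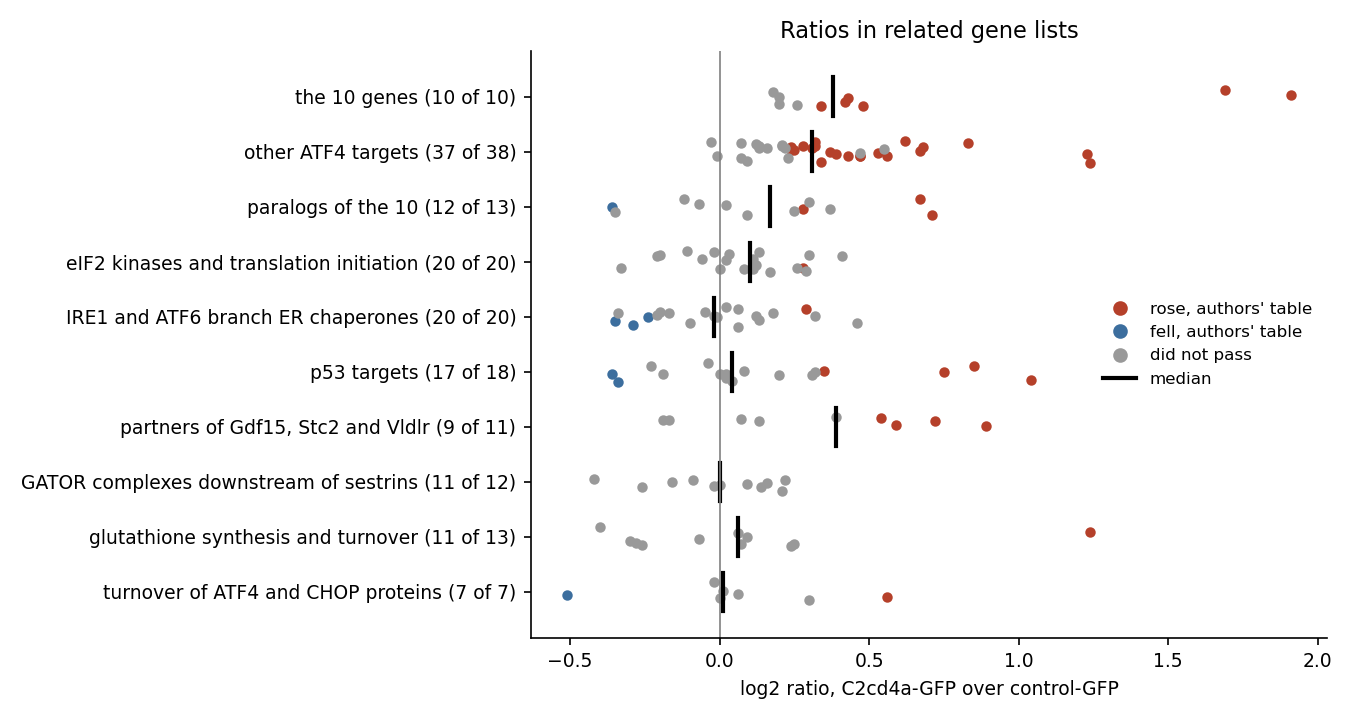
log2 ratios of C2cd4a-GFP over control-GFP for the genes of each list with at least 1 CPM (their number of those listed is in brackets), coloured by the call in the authors' deposited table, with the list's median as a black bar. The medians are 0.38 for the 10 genes and 0.31 for other ATF4 targets. They lie at -0.02 for the IRE1 and ATF6 branch and 0.10 for eIF2 kinases and translation initiation.

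Markers of other cell types were mostly at or near 0. Of 10 acinar and ductal markers 6 had 0 counts in both libraries (Cpa1, Cela2a, Prss2, Amy2a5, Krt19 and Sox9), and the summed level of 100.0 CPM in the C2cd4a-GFP library and 184 CPM in the control-GFP library was nearly all Krt8 (2983 counts with C2cd4a-GFP, 5539 with control-GFP). Among 7 markers of other islet cells 2 had 0 counts in both libraries, Hhex among them, and the sum of 80.7 CPM with C2cd4a-GFP and 53.9 CPM with control-GFP was mostly glucagon. Gcg had 2292 counts with C2cd4a-GFP and 1511 with control-GFP, and rose in the authors' deposited table (log2 fold change 0.49, adjusted p = 1.51e-05). Fibroblast, endothelial and immune markers summed to 5.75 CPM with C2cd4a-GFP and 5.3 CPM with control-GFP, with Col3a1 and Cdh5 at 0. Of the 8 beta-cell markers 1 had a ratio above 1, and Ins1 (52505 counts with C2cd4a-GFP, 98394 with control-GFP) and Slc2a2 (5574 against 9498) were lower by size. Over all genes 49.2% had a ratio above 1 and 4.23% were lower by size. In the authors' deposited table Ins1 (log2 fold change -0.67, adjusted p = 0.0037), Slc2a2 (-0.81, adjusted p = 7.60e-14) and G6pc2 (-0.23, adjusted p = 0.0473) fell, and 0 of the 8 rose. The part of these differences in the ratios of the 10 genes was not tested.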

How the data were processed

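Libraries were directional and poly-A selected, read as 42 bp pairs, per the labels' protocols. The submitters' processing notes list STAR 2.5.2b, featureCounts, Subread 1.5.2, DESeq2 1.14.1 and mm10 without saying which did what. The authors deposited 1 column of raw gene counts per condition. The log2 fold changes, p-values and adjusted p-values are the authors', from a deposited sheet named for DESeq2. The authors also deposited a normalized value per condition, treated as a score, rounded to whole numbers. The number of libraries behind it is not given here.

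Counts of 27179 rows were scaled with edgeR 4.0.16 in R 4.3.3 (TMM factors 1.015 and 0.985). Symbols replaced by dates (27) were looked up by gene ID in RefSeq GRCm38.p6. Ratio intervals are exact Clopper-Pearson intervals given the summed counts. Intervals and the floor of 3 counts per library cover counting error only. GC content came from the longest GENCODE M21 transcript of each symbol (96.9% of tested genes, all 10 genes). Trends were lowess curves of span 0.3. The calculation was tested on simulated counts. Members, lists, rules and tests were chosen with earlier results of these data known. All 10 genes and their paralogs are named, except that some listed genes are not reported here. From each other list up to 4 genes of at least 5 CPM that met the size rule are named, by the interval bound farthest from equality, or otherwise the 2 most abundant. Further names were added after their values were seen. Protein sequences were not used here.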

Additional observations from a re-analysis of the deposited data

How the results depend on the processing

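Over 8 alternatives for each of the 10 genes (scaling by DESeq2 1.42.0 size factors, total counts or upper quartile, thinning, a prior count of 2, the authors' normalized values, and removal of the trend with exon length or with exon length and GC content), all 80 log2 ratios stayed above 0. Stc2 ran from 1.63 to 1.82, Gdf15 from 1.68 to 2.25, Atf4 from 0.19 to 0.39 and Vldlr from 0.08 to 0.47. The number of the 10 called higher was 2, and 5 with the trend with length and GC content removed, 1 with a minimum of 5 CPM (Gdf15 then lies under it) and 6 at a fold of 1.2, where 17.7% of all genes were higher. The trend with length and GC content, an alternative added after seeing the data, moved the median log2 ratio of the 10 to 0.54. For other ATF4 targets the median log2 ratio ran from 0.29 to 0.36 under the alternatives run, which did not include other fold thresholds. The number higher by size was 6, and 8 with total-count scaling, where 5.34% of all genes were higher. The number lower was 0 under each. Over all genes, total-count scaling gave 682 higher and 453 lower in place of 540 each. No paired analysis was possible because each condition has 1 library, and for the same reason no library could be left out. Depth limits Gdf15 most, and the counting intervals leave the spread between cultures unmeasured.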

Other observations

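Chac1 degrades glutathione, and the listed genes of its synthesis and turnover had log2 ratios from -0.40 to 1.24. Of 11 listed genes with at least 1 CPM, 1 was higher by size (Slc7a11) and 0 lower, and the median log2 ratio was 0.06. Over all genes 4.23% were higher by size and 4.23% lower. In the authors' deposited table Slc7a11 alone of this list rose and 0 fell, where 7.0% of 14619 genes rose and 6.58% fell. Genes of the GATOR complexes, through which sestrins act on mTORC1, were listed together with genes of proteins that work with them, such as Rragc. This list had 0 size calls among 11 genes with at least 1 CPM, where 4.23% of all genes were higher and 4.23% lower. Its median log2 ratio was 0.00. The most abundant of the list were Sec13 (6988 counts with C2cd4a-GFP against 7061 with control-GFP, log2 ratio -0.02) and Rragc (4274 against 4001, 0.09), which is not a GATOR subunit gene.

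Among 7 genes that take part in the turnover of ATF4 and CHOP proteins, 0 met the size rule, or 1 with total-count scaling or with the trend in exon length removed. Over all genes the rule called 4.23% higher and 4.23% lower, or 5.34% and 3.55% with total-count scaling. The most abundant were Skp1a (6321 counts with C2cd4a-GFP against 6405 with control-GFP, log2 ratio -0.02) and Cul3 (4512 against 3066, 0.56). In the authors' deposited table Cul3, a ubiquitin ligase scaffold gene, rose (0.49, adjusted p = 0.0072).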
